A study of Mus musculus with 2 samples.

Results

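The genes described here encode the nuclear subunits of the mitochondrial respiratory chain, complexes I to IV, and of ATP synthase, complex V. Members were all probe sets with a single annotated gene symbol that begins with Ndufa, Ndufb, Ndufc, Ndufs, Ndufv, Uqcr, Cox4 to Cox8 or Atp5, or that is Sdha, Sdhb, Sdhc or Sdhd. The Ndufaf and Sdhaf genes, which encode assembly factors, were left out. This gave 169 of the 45037 probe sets, for 82 of the 18193 named genes. By complex the genes numbered 34 for complex I, 4 for complex II, 8 for complex III, 19 for complex IV and 17 for complex V. Ndufa4 and Ndufa4l2 were counted with complex IV, where the product of Ndufa4 is now placed. Members were picked by name and not by measured value, although earlier results of these data were known when the choice was made.

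PolyA RNA was obtained from 5cc7 T cells of the mouse, T cells specific for moth cytochrome c (MCC). Stimulation with MCC peptide took place in vitro and the blasts were taken on day 5, and the labels give no strain, age or sex. The material was applied to 2 Affymetrix mouse 430 2.0 arrays, set 1 and set 2, which make up 1 group. There was no resting, treated or time-matched sample, so no comparison between conditions could be tested and no p-value is given. The labels do not say that the arrays hold RNA of separate cultures, so each SD below (n = 2 arrays) may be technical. Values are the deposited intensities on a linear scale, with array medians of 36.4 and 37.9. Of the T cell markers Cd3d, Cd3e, Cd3g, Cd4, Thy1, Cd28 and Zap70, 7 of 7 were above background. All 5 measured B cell markers were as well, the highest being Ighm at 2580.6 and 2163, and 1 of 7 markers of macrophages and dendritic cells was (Csf1r, 57.3 and 146.7). The share of the respiratory signal that came from other cells was not tested.

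The respiratory chain passes electrons from NADH and succinate to oxygen and pumps protons out of the mitochondrial matrix, and ATP synthase uses the returning protons to make ATP. Complex I takes electrons from NADH, complex II from succinate, complex III passes them from ubiquinol to cytochrome c, and complex IV passes them to oxygen. Most subunits are made from nuclear genes and imported, while a small set is encoded in mitochondrial DNA. Activated T cells are known for high glycolysis, and their mitochondria also expand during the first days of stimulation. Several complex IV subunits exist as a widely expressed form and a form restricted to tissues such as heart, muscle, lung or testis.

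To count as above background, a probe set had to exceed an intensity of 55.9 on set 1 and of 61.1 on set 2. These bounds are the 95th percentile, on each array, of the probe sets for 41 genes of liver, eye, pancreas and kidney. A gene was called above background when at least 1 of its probe sets was, and its brightest probe set gives its level. Of 49 measured genes of a second list, of other organs, 9 (18.4%) were also called, the highest being Mbp at 471.4 and 515.6. A call for a single gene is therefore not proof of expression in these cells. Probes bind with unequal strength, so intensities of different genes are not compared as amounts.

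Nearly all members were detected. Of the 82 genes, 73 (89.0%) were above background, where 46.1% of all named genes were. Of the 169 probe sets, 131 (77.5%) were above background, where 36.7% of all probe sets were. Members had 2.06 probe sets per gene and named genes in general 1.92. The 9 genes not called were Cox4i2, Cox6a2, Cox6b2, Cox7a1, Cox7b2, Cox8b, Ndufa4l2, Ndufb1 and Ndufb4. Of these, 7 are counted as restricted isoforms of complex IV, and without such isoforms 72 of 74 members (97.3%) were called. Ndufa4l2, a paralogue known for its response to low oxygen and not for a tissue, is counted with the restricted forms here and below.

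**Figure D1:**
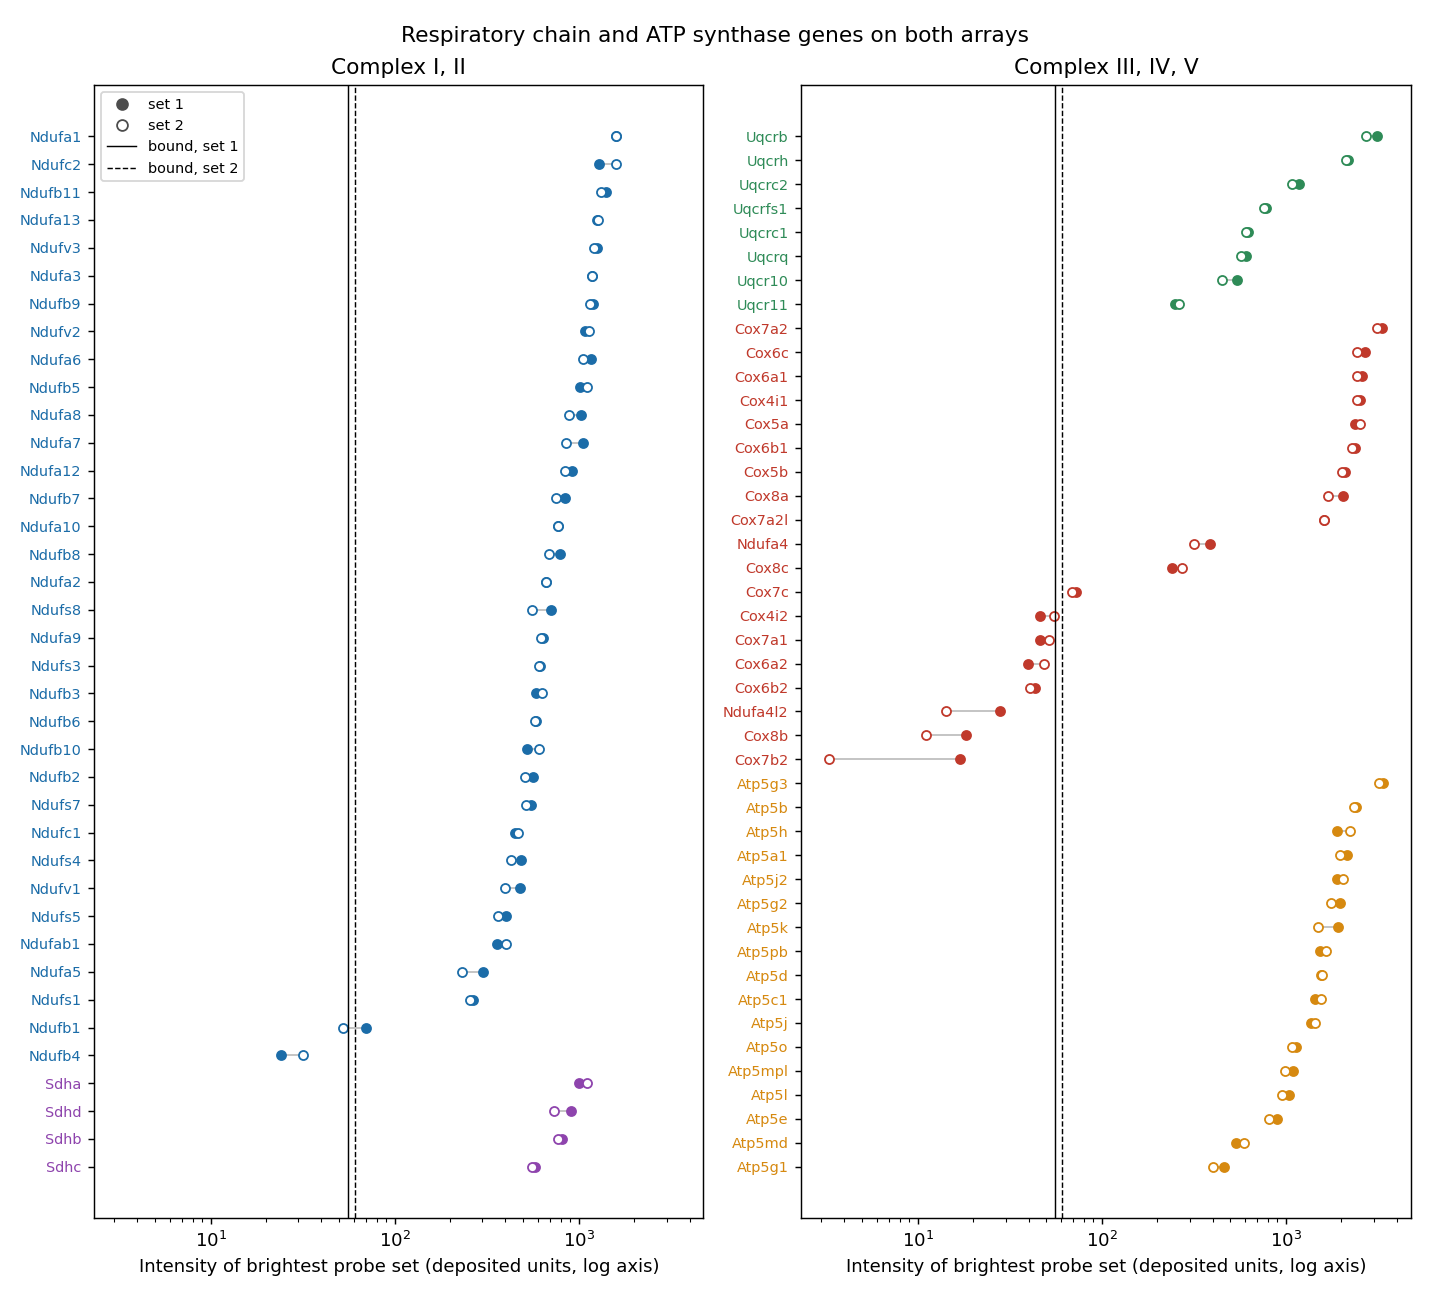
Intensity of the brightest probe set of each member gene (log axis, deposited units), on set 1 (filled) and set 2 (open), by complex in colour, with the background bounds of 55.9 (set 1, solid line) and 61.1 (set 2, dashed line). In complexes II, III and V every gene lies to the right of both bounds, while 7 genes of complex IV and 2 of complex I do not.

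Between the bound and the bulk of the members lay a wide gap. The called gene nearest the bound was Cox7c, a small subunit of complex IV, at 72.6 on set 1 and 68.8 on set 2. The next nearest was Ndufs1, at 265.1 and 257.2, with each gene taken by its probe set furthest above both bounds. By brightest probe set Ndufa5, at 300.6 on set 1 and 233 on set 2, was nearer the bound of set 2. Of the genes that missed, Ndufb1 came nearest, with 69.7 on set 1, above the bound there, and 52.1 on set 2, below it. All of the other 72 called genes had at least 1 probe set at 4.21 times the bound or more on both arrays.

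Complex I is the largest complex, and its core subunits carry the flavin and the iron-sulfur clusters. Ndufv1, which binds NADH and the flavin, was at 476.9 on set 1 and 399.6 on set 2 (mean 438 ± 54.7). Ndufv2, an iron-sulfur subunit beside it, was at 1085.5 and 1135.6. Ndufs1, the large iron-sulfur subunit of the same arm, was at 265.1 and 257.2. These 3 genes form the part that takes electrons from NADH, and all were above background in every probe set, 3 of 3, 3 of 3 and 1 of 1. Along the path to ubiquinone, Ndufs3 was at 617.3 and 605.4, and the iron-sulfur subunit Ndufs7 at 550.5 and 518. Ndufs8, which carries further iron-sulfur clusters, was at 704.4 and 558.4. All 6 core genes measured were called, with 16 of 16 probe sets above background.

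The accessory subunits of complex I surround this core. Of 28 measured, 26 were above background. Ndufa1, a small membrane subunit encoded on the X chromosome, was at 1597.3 and 1588.9. Ndufc2 was at 1296.4 and 1589.5, Ndufb11 at 1407.4 and 1326.1, and Ndufa13, also known as Grim19, at 1257 and 1268.3. Ndufs4, whose loss in mice gives a model of Leigh syndrome, was at 486.1 and 428.7. The mitochondrial acyl carrier protein Ndufab1, which also serves fatty acid synthesis, was at 361.1 and 403.3. Ndufs5 was at 402.6 and 363.4 and Ndufa5 at 300.6 and 233. The accessory genes not called were Ndufb1 and Ndufb4.

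Ndufb4 had a single probe set of its own, at 24 on set 1 and 31.6 on set 2. Another pair of probe sets is annotated jointly to Ndufb4, Ndufb4b and Ndufb4c, and these were at 432.6 and 440.8 and at 368.5 and 411.5. The low value of the single probe set therefore does not show that the transcript was absent. In all, 10 probe sets carried a member name together with another symbol, and 6 of them were above background. Among them were those for Ndufa11 with Ndufa11b (601.7 and 569.3) and Ndufs6 with Ndufs6b (391.3 and 377.5), genes that no single-symbol probe set covered. They are in none of the counts.

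Complex II, succinate dehydrogenase, links the respiratory chain to the citric acid cycle. All 4 genes were above background. The flavoprotein gene Sdha was at 998.7 and 1105.2 (mean 1052 ± 75.3), and the iron-sulfur subunit gene Sdhb at 809.2 and 775.2 (mean 792 ± 24.0). Of the membrane anchors, Sdhc was at 575.5 and 557 and Sdhd at 903.4 and 733.2. For Sdhd the log2 difference, set 2 minus set 1, was -0.33 on this probe set and 0.11 on its other one (178.8 and 196.4). This difference is centred on the median of all probe sets above background, as are all those below.

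In complex III all 8 genes were called. Uqcrfs1, the Rieske iron-sulfur protein, was at 777.6 and 758. The core proteins Uqcrc1 and Uqcrc2 were at 623.6 and 609.3 and at 1179 and 1082. The small subunits Uqcrb and Uqcrq were at 3117.3 and 2723.1 and at 610 and 571.7. The hinge protein Uqcrh, which sits near the cytochrome c site, was at 2168.6 and 2114.6. Uqcr10 and Uqcr11 were at 544.8 and 448.7 and at 249.8 and 263.8. Cyc1, the cytochrome c1 subunit, falls outside the naming rule and was at 637.2 and 608. Its electron acceptor, cytochrome c (Cycs), was at 1553.5 and 1598.1, while the testis form Cyct was not above background at 20.9 and 16.6.

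Complex IV, cytochrome c oxidase, showed a division by isoform. All 7 widely expressed forms of its isoform families were above background, and 1 of 8 restricted forms was. Cox4i1, the common form of the regulatory subunit 4, was at 2514.4 and 2447 (mean 2481 ± 47.7), and its lung form Cox4i2 at 45.9 and 55, below both bounds. Cox6a1 was at 2584.2 and 2422, and the heart and muscle form Cox6a2 at 39.7 and 48.4 on its brighter probe set. Cox6b1 was at 2363.5 and 2282.6, and the testis form Cox6b2 at 43.4 and 40.7. In each of these families the common form was above the bound on both arrays and the restricted form on neither. With each array's median as the bound (36.4 and 37.9), 5 of the 8 restricted forms were called, namely Cox8c with Cox4i2, Cox6a2, Cox6b2 and Cox7a1.

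The same held for subunit 7a. Cox7a2 was at 3342.6 and 3110.3, and the heart and muscle form Cox7a1 at 46 and 51.8. Cox7a2l, a relative that acts in the assembly of supercomplexes of respiratory complexes, was at 1617.8 and 1616.4. The testis gene Cox7b2 was at 16.9 and 3.3, and its common counterpart Cox7b was not analysed here. Ndufa4, the common form of a subunit first assigned to complex I, was at 389.3 and 317.1. Its paralogue Ndufa4l2, known to respond to low oxygen, was not above background at 27.9 and 14.2.

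Subunit 8 gave the exception. Cox8a, the common form, was at 2040.9 and 1696.7 on its brightest probe set and at 1805 and 1499.9 on the next. The heart and muscle form Cox8b was not above background at 18.3 and 11.1. Cox8c, described as a testis form, was above background at 240 and 274.2 (mean 257 ± 24.2). Its other probe set, whose name ends in _x_at and whose probes may bind other transcripts, was at 55.7 on set 1, just under the bound, and at 77 on set 2. Thus 1 of its 2 probe sets was called. None of the 6 testis markers was above background. The highest of them, Prm2, was at 36.2 and 55.6. None of the 8 markers of muscle and heart was above background either, the highest being Ckm at 54.2 and 75.

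**Figure D2:**
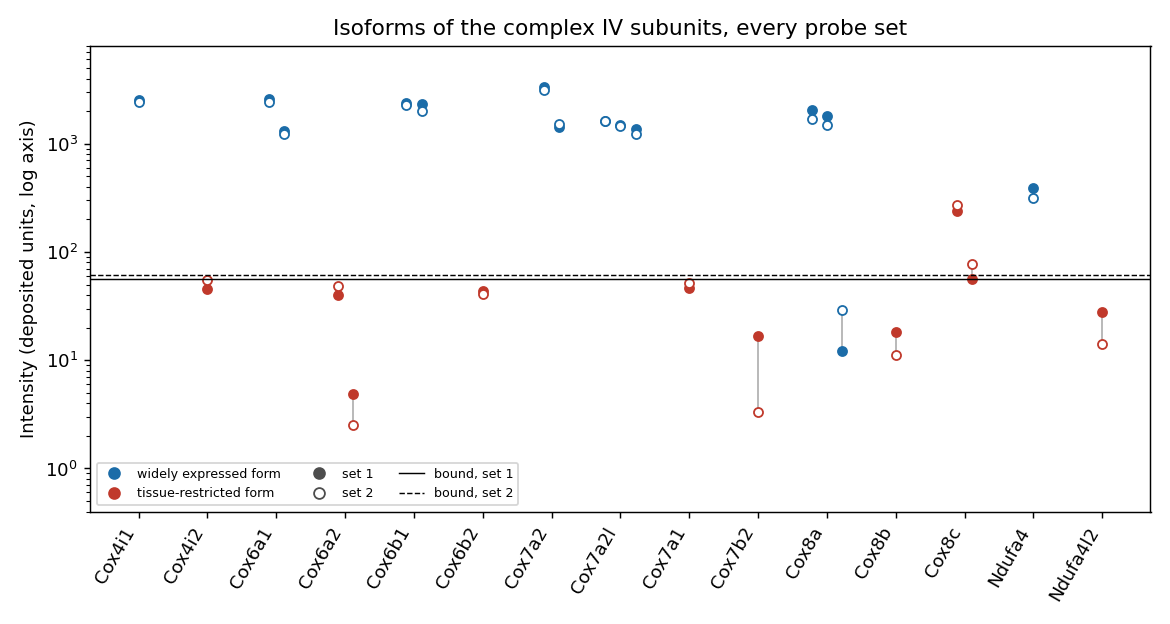
Intensity (log axis, deposited units) of every probe set of the complex IV isoform families on set 1 (filled) and set 2 (open), with widely expressed forms in blue, restricted forms in red and the bounds as horizontal lines. Restricted forms lie at or under the bounds except for Cox8c, whose brighter probe set is at 240 and 274.2, and 1 of the 3 probe sets of Cox8a lies far under them.

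The complex IV subunits without a restricted form among the members were Cox5a, Cox5b, Cox6c and Cox7c. Cox5a was at 2375.4 and 2532.1, Cox5b at 2102.7 and 2007.7 and Cox6c at 2675.5 and 2419.9. The probe sets of Cox7c were at 72.6 and 68.8 and at 18.7 and 23.9, so 1 of 2 was above background. Cox7c was not called when the bound was taken from a second list of genes, of other organs, or at the 99th percentile. Nor was it called by the median over its probe sets, or without _s_at and _x_at probe sets.

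ATP synthase consists of a catalytic head, F1, a rotating central stalk with a ring of c subunits, and a peripheral stalk. All 17 genes were above background. The alpha and beta subunits of the head, Atp5a1 and Atp5b, were at 2141.1 and 1975.1 and at 2410.7 and 2335.3. In the central stalk the gamma subunit gene Atp5c1 was at 1445.7 and 1543.1. The delta and epsilon subunit genes, Atp5d and Atp5e, were at 1545.7 and 1575.2 and at 889.9 and 807. The arrays differed by less than 0.17 on the log2 scale for Atp5a1, Atp5b, Atp5c1, Atp5d and Atp5e alike.

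The c subunit of the ring is encoded by 3 genes whose mature proteins are the same and whose import signals differ. All of them were detected, Atp5g1 at 459.5 and 400, Atp5g2 at 1967.5 and 1753.3 and Atp5g3 at 3362.1 and 3201.6. Each was lower on set 2, with log2 differences of -0.23, -0.19 and -0.10. In the peripheral stalk, Atp5pb, the b subunit gene, was at 1536.3 and 1657.4. Atp5h, the d subunit gene, was at 1905.9 and 2240.7, and Atp5o, the subunit that confers sensitivity to oligomycin, at 1130 and 1081.1. Coupling factor 6 (Atp5j) was at 1368.5 and 1438.3.

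The small membrane subunits of ATP synthase were also detected. Atp5j2 was at 1898.5 and 2050.5, Atp5k at 1916.9 and 1490.8, Atp5l at 1033.7 and 951.1, Atp5mpl at 1097.7 and 985.6 and Atp5md at 539.1 and 592.8. Atpif1, the inhibitor that blocks reverse action of the enzyme and lies outside the naming rule, was at 411.2 and 451.4. Among the 9 accessory genes of ATP synthase 16 of 16 probe sets were above background, and among the 8 genes of the head, central stalk and ring 10 of 15 were.

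Probe sets of a single gene often disagreed. Of the 49 members with more than 1 probe set, 19 were called on part of them. Sdha ranged from 1052 to 5.05 (mean of the arrays) over 4 probe sets, Cox5b from 2055 to 1.75 over 6 and Ndufc2 from 1443 to 11.5 over 4. Cox5b was above background in 4 of 6 probe sets, Ndufab1 in 2 of 5 and Ndufs4, Uqcrq and Atp5g2 in 1 of 4, 1 of 4 and 1 of 3. The same held in complex I for Ndufa3 (2 of 3, brightest 1181.9 and 1182.4), Ndufb9 (2 of 3, 1201 and 1157.2) and Ndufa12 (3 of 4, 920.2 and 846.7). Ndufa10 (769.2 and 767.3) and Ndufb8 (794.6 and 692.4) were called in 1 of 2 each. By contrast, Ndufs8 was called in 6 of 6 and Ndufa7 in 5 of 5. In total 38 member probe sets were not above background, and 28 of them belong to genes called on another probe set.

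The misses fell by type of probe set. In the naming of these arrays, _a_at marks probe sets shared by transcripts of a single gene, _s_at those shared by several genes and _x_at those with probes that may bind elsewhere. Among members, 37 of 37 _a_at and 18 of 18 _s_at probe sets were above background, as were 24 of 29 _x_at and 52 of 85 plain _at probe sets (61.2%). Over all probe sets the shares were 57.3% for _a_at, 55.2% for _s_at, 50% for _x_at and 32.2% for plain _at.

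Between the arrays no member probe set above background moved far. Of the 131 probe sets above background, 0 differed by more than 1.5-fold between the arrays, where 2.63% of all 16519 probe sets above background did, 1.88% being higher and 0.757% lower on set 2. Members were brighter than most of these, and among the 7709 probe sets of like intensity (182 to 2413) 96 (1.25%) did. The 0 of 131 is near that share. The most different was a probe set of Ndufa5, lower on set 2 by a log2 difference of -0.40 (300.6 and 233). At the other end a probe set of Ndufb6 was higher by 0.37 (426 and 562.2). The SD of the log2 difference was 0.15 among members, against 0.19 among those of like intensity and 0.24 among all above background. Between 256 and 512 it was 0.20 among 26 members and 0.19 among all. In the other ranges it was smaller among members. There it was 0.18 against 0.26 under 256 and 0.13 against 0.17 from 512 to 1024. From 1024 to 2048 it was 0.13 against 0.15, and above that 0.11 against 0.12. Within 1.25-fold lay 124 of the 131 (94.7%), against 85.4% of all, a share not matched for intensity.

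A small shift ran through the members. The median log2 difference was -0.08, and 94 of 131 probe sets (71.8%) were lower on set 2. Of the probe sets of like intensity 53.4% were. The share of all probe sets above background, 50%, is set by the centring itself. Without centring 87 of the 131 were lower. By complex the medians were -0.08 for I, -0.05 for II, -0.06 for III, -0.09 for IV and -0.07 for V. The shift kept its sign under no centring (-0.05), trimmed-mean scaling (-0.08) and quantile normalization (-0.07). With 1 array on each side there is no replicate error to set it against.

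Brightness moved with this shift. Among all probe sets above background, the median difference was 0.02 under an intensity of 256, -0.02 from 256 to 512, -0.02 from 512 to 1024, -0.04 from 1024 to 2048 and -0.09 above. Among members it was -0.02 (n = 11), -0.08 (n = 26), -0.09 (n = 40), -0.05 (n = 39) and -0.09 (n = 15) in the same ranges, with no steady fall. The share lower on set 2 was 54.5% of members and 46.0% of all under 256, and 53.8% and 53.5% from 256 to 512. From 512 to 1024 it was 80.0% and 57.5%, from 1024 to 2048 74.4% and 59.9%, and above that 86.7% and 75.8%. The part of brightness in the members' shift was not tested further.

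Different probe sets for the same gene often had differences of opposite sign. Of 38 genes with at least 2 probe sets above background, 20 had probe sets on both sides of 0, 16 had all of them lower on set 2 and 2 had all of them higher. Atp5k ranged from -0.39 to 0.29 over 3 probe sets, and Uqcrb from -0.22 to 0.20 over 2. Cox8a was alike on both called probe sets, at -0.29 and -0.30. Uqcrh, too, was alike, at -0.06 and -0.06.

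**Figure D3:**
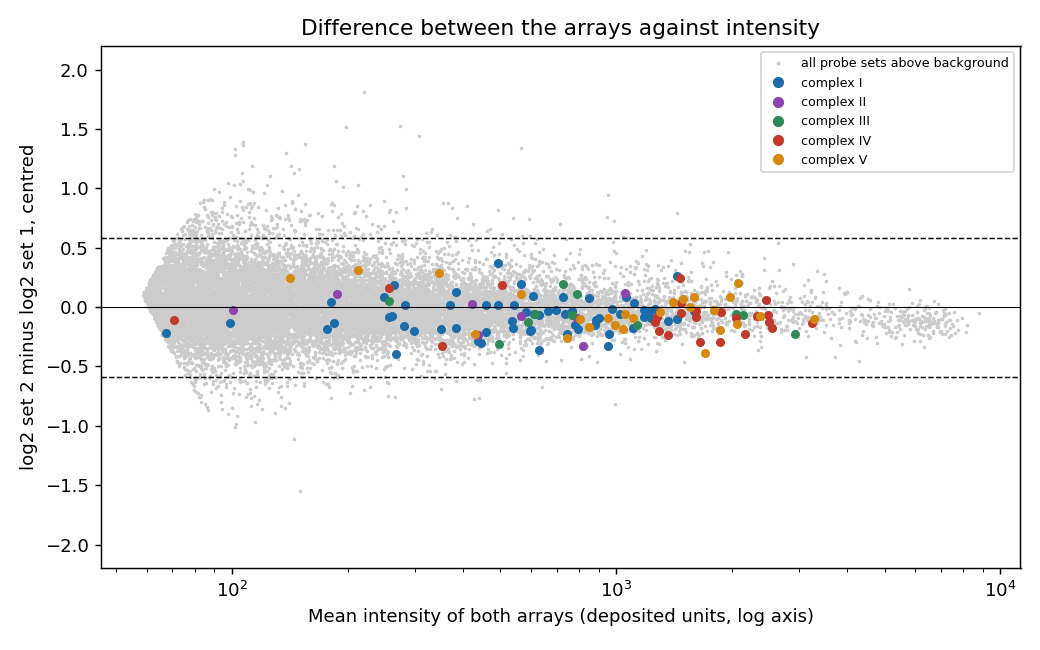
Centred log2 difference, set 2 minus set 1, against the mean intensity of both arrays (log axis, deposited units) for all 16519 probe sets above background (grey) and the 131 of the members (coloured by complex), with dashed lines at 1.5-fold. No member lies beyond the dashed lines, and 94 of the 131 lie below 0.

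Genes that assemble the complexes or work beside them were mostly detected as well. Of 44 measured assembly factors, 39 were above background, where 46.1% of all named genes were. For complex I, Ndufaf8 was at 294.7 and 335.7 and Ndufaf1 at 225.1 and 216, while Ndufaf6 (12.2 and 34.4) and Foxred1 (93.4 and 51.5) were not called. For complexes II and III, Uqcc3 was at 508.3 and 543.4 and Sdhaf2 at 360.6 and 374.8, and Lyrm7, an assembly factor of the Rieske protein, was not above background at 11.2 and 19.3. For complex IV, Cox17, a copper chaperone, was at 975.3 and 1139, Coa5 at 1035 and 1092.4 and Surf1 at 566.2 and 537.1. Sco1, another copper carrier, was at 47.5 and 47 and Coa7 at 53 and 46.8, and neither was called. The ATP synthase factors Atpaf1, Atpaf2 and Tmem70 were all above background.

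Of the electron carriers and coenzyme Q genes 15 of 19 were called, with Etfb, a subunit of the carrier that serves fatty acid oxidation, at 697.1 and 738.2. Coq4, Coq6, Coq8a and Cyct were not. Of 21 genes of the citric acid cycle and pyruvate oxidation 18 were called, among them malate dehydrogenase Mdh2 at 2240.3 and 2196.9. Pdk1, a kinase that restrains pyruvate oxidation, was at 984.2 and 1266.9, and its relative Pdk3 at 151.7 and 189.3. The other relatives Pdk2 and Pdk4, and the complex component Pdhx, were not above background. Of 13 carriers and channels 9 were called. The phosphate carrier Slc25a3 was at 2890.6 and 2875.7 and the ADP/ATP carrier Slc25a5 at 2451 and 2334.7. The uncoupling protein genes Ucp1 and Ucp3, the testis ADP/ATP carrier Slc25a31 and Slc25a13 were not called.

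Regulators of mitochondrial biogenesis were above background in 13 of 16 cases. Tfam, which packages and transcribes mitochondrial DNA, was at 314.1 and 368.4. Nrf1 and Gabpa, factors known to act on respiratory genes, were at 124.9 and 164.3 and at 285.3 and 268.9, and Yy1 at 1117.2 and 1173.7. The coactivator Ppargc1b was at 90 and 112.3, but Ppargc1a, its relative of muscle, liver and brown fat, was not above background in any of 5 probe sets (brightest 30.7 and 20.1). Esrrg and Perm1 were not called. Of 9 genes of the cristae and prohibitin complexes 8 were called, all but Chchd6. Of the subunits encoded in mitochondrial DNA, the 1 measured, ND5 of complex I, was at 4656.2 and 4381.1.

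**Figure D4:**
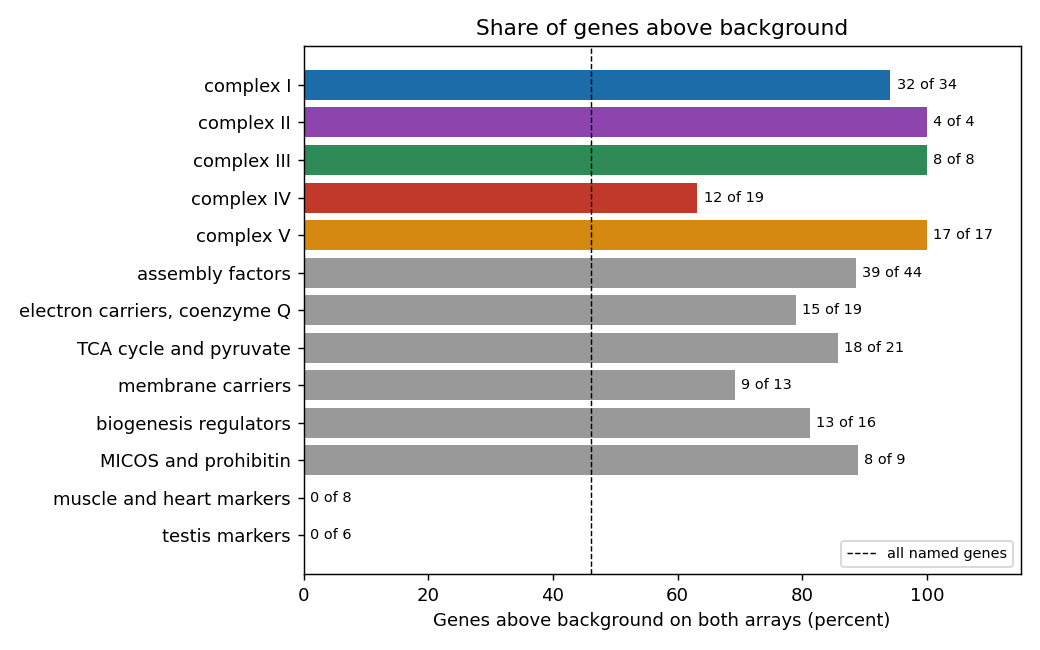
Percent of genes above background on both arrays for each complex (coloured) and for lists of related and marker genes (grey), with counts at the bars and the 46.1% of all named genes as a dashed line. Complexes II, III and V stand at 100%, complex IV at 12 of 19, and the muscle and testis markers at 0.

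The promoters of the members were set beside these values, since Nrf1, Gabpa and Yy1 were detected. RefSeq promoter windows (GRCm38.p6, 250 bases before to 50 after the start) matched 67 of the 82 genes, with 72 windows. The windows were searched on both strands for 3 motifs, GCGC followed by any base and TGCGC for NRF1, ACTTCCG for GABP and other ETS factors, and AAGATGGC for YY1. Matches of different motifs overlapped in 0 cases. A match describes letters and is not a binding site.

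Of the 61 member genes above background with a window, 31 (50.8%) held at least 1 motif, against 32.8% of the 6871 genes of the array above background. For NRF1 the shares were 23.0% and 13.3%, for YY1 14.8% and 6.27%, and for GABP 18.0% and 17.5%. Over all 27025 genes of the table, with no regard to detection, they were 5.19%, 3.19% and 7.20%. By window, 4.60%, 2.75% and 6.42% of all 32851 held them. Median GC content was 58.5% in member windows and 52.7% in all. No test was run on these shares. The counts by complex and the positions below take in all 67 members with a window, called or not. Genes with any motif were 13 of 31 for I, 2 of 3 for II, 3 of 5 for III, 4 of 13 for IV and 10 of 15 for V. With no regard to detection, any motif was held by 14.1% of all 27025 genes. The counts for II and III rest on 3 and 5 genes and say little. YY1 matches lay near the start, with a median first base at position 23 after it, and NRF1 and GABP matches mostly before it, with medians at -46 and -45. Windows of a gene can overlap, and those of Ndufa5 hold the same NRF1 match, which is counted in each.

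**Figure D5:**
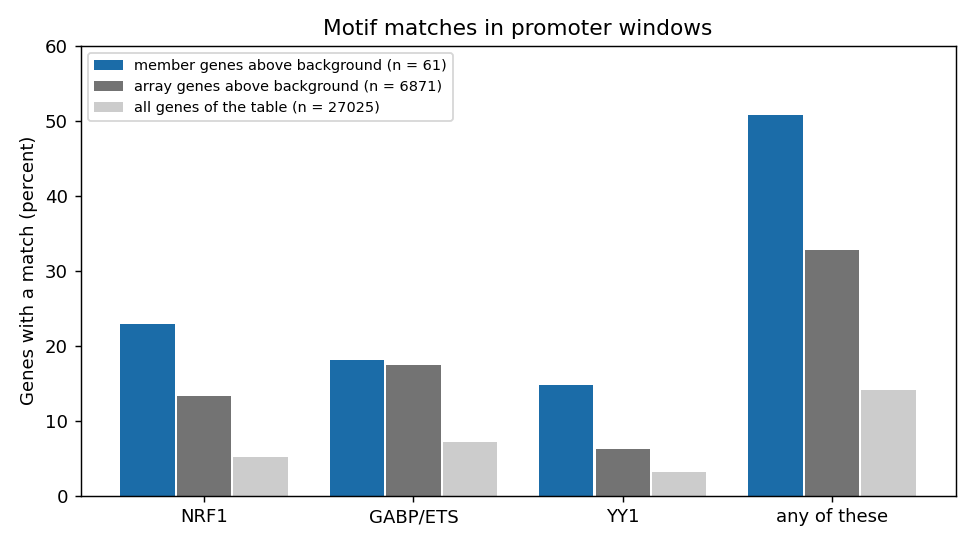
Percent of genes with a motif match in a promoter window, for the 61 member genes above background, 6871 array genes above background and 27025 genes of the table. The member bar is above the array bar for NRF1 (23.0% and 13.3%) and YY1 (14.8% and 6.27%) and nearly level with it for GABP/ETS (18.0% and 17.5%).

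Among isoforms with a window, 4 of 7 widely expressed genes held a motif and 0 of 4 restricted ones did. Uqcrh was counted with the widely expressed forms of complex IV. None of these restricted genes was above background. Over all genes with a window, called or not, 14.1% held any motif, and 0 of 4 cannot be told from that share. Whether motifs differ between the kinds of isoform was not tested. The 250 bases before the start are shown for the pair Cox6b1 and Cox6b2, the former called and the latter not, and for genes with NRF1 or GABP matches in other complexes. Capitals mark the matches.
Cox6b1, chr7:30626115-30626364, strand -: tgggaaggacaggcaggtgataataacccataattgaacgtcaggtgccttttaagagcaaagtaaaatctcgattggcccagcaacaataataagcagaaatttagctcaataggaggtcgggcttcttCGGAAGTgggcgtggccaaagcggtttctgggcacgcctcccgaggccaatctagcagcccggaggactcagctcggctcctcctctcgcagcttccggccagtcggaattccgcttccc
Cox6b2, chr7:4753095-4753344, strand -: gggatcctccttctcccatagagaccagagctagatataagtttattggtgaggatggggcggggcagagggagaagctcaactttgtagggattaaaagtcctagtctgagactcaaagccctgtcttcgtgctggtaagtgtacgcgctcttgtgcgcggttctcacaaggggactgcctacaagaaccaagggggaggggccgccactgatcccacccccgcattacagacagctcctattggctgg
Sdha, chr13:74350241-74350490, strand -: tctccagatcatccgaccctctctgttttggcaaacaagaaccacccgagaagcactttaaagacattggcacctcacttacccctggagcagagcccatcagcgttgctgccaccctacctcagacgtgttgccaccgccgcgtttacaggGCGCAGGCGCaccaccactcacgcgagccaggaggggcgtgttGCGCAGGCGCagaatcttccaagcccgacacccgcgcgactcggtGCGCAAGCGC
Ndufa9, chr6:126849145-126849394, strand -: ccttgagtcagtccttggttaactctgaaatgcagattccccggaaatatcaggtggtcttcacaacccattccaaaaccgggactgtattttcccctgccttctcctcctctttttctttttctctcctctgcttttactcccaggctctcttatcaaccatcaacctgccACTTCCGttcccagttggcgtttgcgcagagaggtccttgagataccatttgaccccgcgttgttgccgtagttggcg
Atp5h, chr11:115419920-115420169, strand -: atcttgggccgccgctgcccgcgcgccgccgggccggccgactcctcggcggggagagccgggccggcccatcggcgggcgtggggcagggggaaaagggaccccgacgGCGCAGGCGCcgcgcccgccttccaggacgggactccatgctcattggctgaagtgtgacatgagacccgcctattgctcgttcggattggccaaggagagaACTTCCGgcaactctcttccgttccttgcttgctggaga
Cox6b1 holds 1 GABP match and Cox6b2 none. Sdha holds 3 NRF1 matches, Ndufa9 1 GABP match, and Atp5h an NRF1 and a GABP match. All of these genes except Cox6b2 were above background on both arrays. Among the other members, match and call did not always go together. Ndufb4, whose own probe set was not called, held NRF1 matches, while the called Cox7a2, Cox7a2l and Ndufa4 held no match. Of the 61 called members with a window, 31 held any motif.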

How the data were processed

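RNA of 1 group of 2 samples was measured on 1 array each. The deposited table holds 1 linear intensity for each probe set on each array, judged linear from its range. How the authors corrected background, summarised probes and scaled arrays is not stated in the labels. After 64 control probe sets were left out, 45037 remained, of which 34945 had 1 gene symbol in the platform annotation of GEO. Symbols were checked by Entrez identifier against RefSeq genes of GRCm38.p6, and 0 changed. Intensities under 1 were set to 1 before log2. The log2 ratio of set 2 to set 1 was centred by subtracting its median among probe sets above background (0.03). The members and lists were chosen with earlier results of these data known.

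Eligible to be named with values were all isoform and core genes, all members not above background or with conflicting probe sets, the 4 highest and 4 lowest other members of each complex, and from each related list the genes not called and up to 3 of the highest. Outside this rule, Ndufa7, Ndufa9, Ndufb6, Atp5j and a few list genes were named after their values were seen. Alternatives covered the bound, the level rule, the probe sets, each array alone, scaling, floor and filter. Some subunits and list genes were not analysed here. Python 3.11.15, numpy 2.4.6, pandas 2.3.3 and matplotlib 3.10.9 were used.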

Additional observations from a re-analysis of the deposited data

How the results depend on the processing

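Of 62 recomputed counts, 60 stayed within 1.5 times the reported count. The exceptions were a pair. With each array's median as the bound (36.4 and 37.9), 5 restricted isoforms were called in place of 1, the added ones being Cox4i2, Cox6a2, Cox6b2 and Cox7a1. Without the filter on low values, 19 of 169 member probe sets differed by more than 1.5-fold in place of 0. This setting adds the 38 probe sets not above background. The number of members called ranged from 65 to 78 over all alternatives, the former with 78 genes left after _s_at and _x_at probe sets were dropped. On set 2 alone (without the first array) it was 73 and on set 1 alone 74. The 36 recomputed medians of the difference were small, and no test bears on them. The median ranged from -0.08 to -0.05 for all members and was below 0 for each complex under every scaling, floor and filter tried. Differences need both arrays, so no array could be left out there. No paired analysis was possible because there is 1 group. The number of arrays and the unknown processing limit the precision, and low values near the bound cannot be told from background.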
